A study of Mus musculus with 7 samples.

Results

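The expression of the 3 Dishevelled genes and of 7 genes of the beta-catenin destruction complex was examined in mouse Group 3 medulloblastoma (G3 MB), a cerebellar tumor driven here by Myc. The 10 genes are Dvl1, Dvl2 and Dvl3, the scaffold genes Axin1, Axin2 and Apc, the kinase genes Gsk3a, Gsk3b and Csnk1a1, and Btrc, which encodes the ubiquitin ligase adaptor beta-TrCP. They were taken by name from the 34592 genes of the deposited count table, and all 10 passed the filter on low counts that left 17389 genes to be tested.

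RNA was sequenced from 7 tumors, 4 with enforced expression of human WDR11 from an EF1 promoter (WDR11OE) and 3 controls. All 7 tumors came from tumorsphere line # 19568, which was made by Myc-IRES-GFP retrovirus from cerebellar granule neuron progenitors, and the study's methods give Trp53-/-; Cdkn2c-/- mice as the source of its G3 MBs, so that the controls carry these alterations as well. The cells were transduced with lentivirus, implanted in the cerebral cortex of CD1 nu/nu hosts, and collected as frozen tumor chunks when the mice became moribund. For the controls, the protocol describes the empty vector and the sample labels give the treatment as none. For the G3 MBs from which such lines derive, the study's methods name early postnatal donors of the progenitors and young adult hosts.

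All tumors derive from 1 tumorsphere line, transduced cells were not sorted from the others, and the chunks may hold tissue of the host brain. Nothing in the labels says that each library came from a separate mouse, so the p-values measure the spread between these libraries. WDR11OE replicates 1 and 2 share a number in their titles. In the titles and descriptions, the sample numbers of each condition form a series of their own. The labels do not say what these numbers stand for. Any effect that goes with them cannot be told apart from that of the condition. Total counts ranged from 32116095 to 87141305 per tumor. Values are given in CPM, the count of a gene relative to the scaled total of its library. Mouse Wdr11, whose count need not include the human transgene, was 58.8 ± 0.464 CPM (SD, n = 3) in the controls and 65.6 ± 3.36 CPM (SD, n = 4) in the WDR11OE tumors, a difference that did not pass the test (log2 fold change 0.16, adjusted p = 0.0910, edgeR, Benjamini-Hochberg).

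In the canonical WNT pathway, beta-catenin is made continuously and destroyed continuously. Axin and Apc hold beta-catenin beside the kinases Csnk1a1, Gsk3a and Gsk3b, which phosphorylate it in turn, and beta-TrCP then marks it for the proteasome. When a WNT ligand engages a Frizzled receptor and its coreceptor Lrp5 or Lrp6, a Dishevelled protein draws Axin to the membrane, the complex stops working, and beta-catenin enters the nucleus, where it activates target genes together with TCF/LEF factors. Axin2 is itself such a target and closes a negative feedback loop. In medulloblastoma the pathway gives its name to the WNT subgroup, which is distinct from Group 3.

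The largest change among the 10 genes was in Dvl3, which was 3.23-fold lower in the WDR11OE tumors. The kinase genes Gsk3b and Gsk3a and the scaffold gene Axin1 also fell, as did Dvl2 by a small margin, while Axin2 rose. Dvl1, Apc, Csnk1a1 and Btrc did not pass the test. Thus 5 of the 10 genes fell and 1 rose at an adjusted p under 0.05, against 15.8% of all tested genes lower and 18.1% higher. The study's method, limma with voom, also called 5 of the 10 lower and 1 higher (15.4% and 17.7% of all genes), and so did DESeq2 (19.3% and 17.8%). The median log2 fold change of the 10 genes was -0.26, and that of all tested genes was 0.08.

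**Figure D1:**
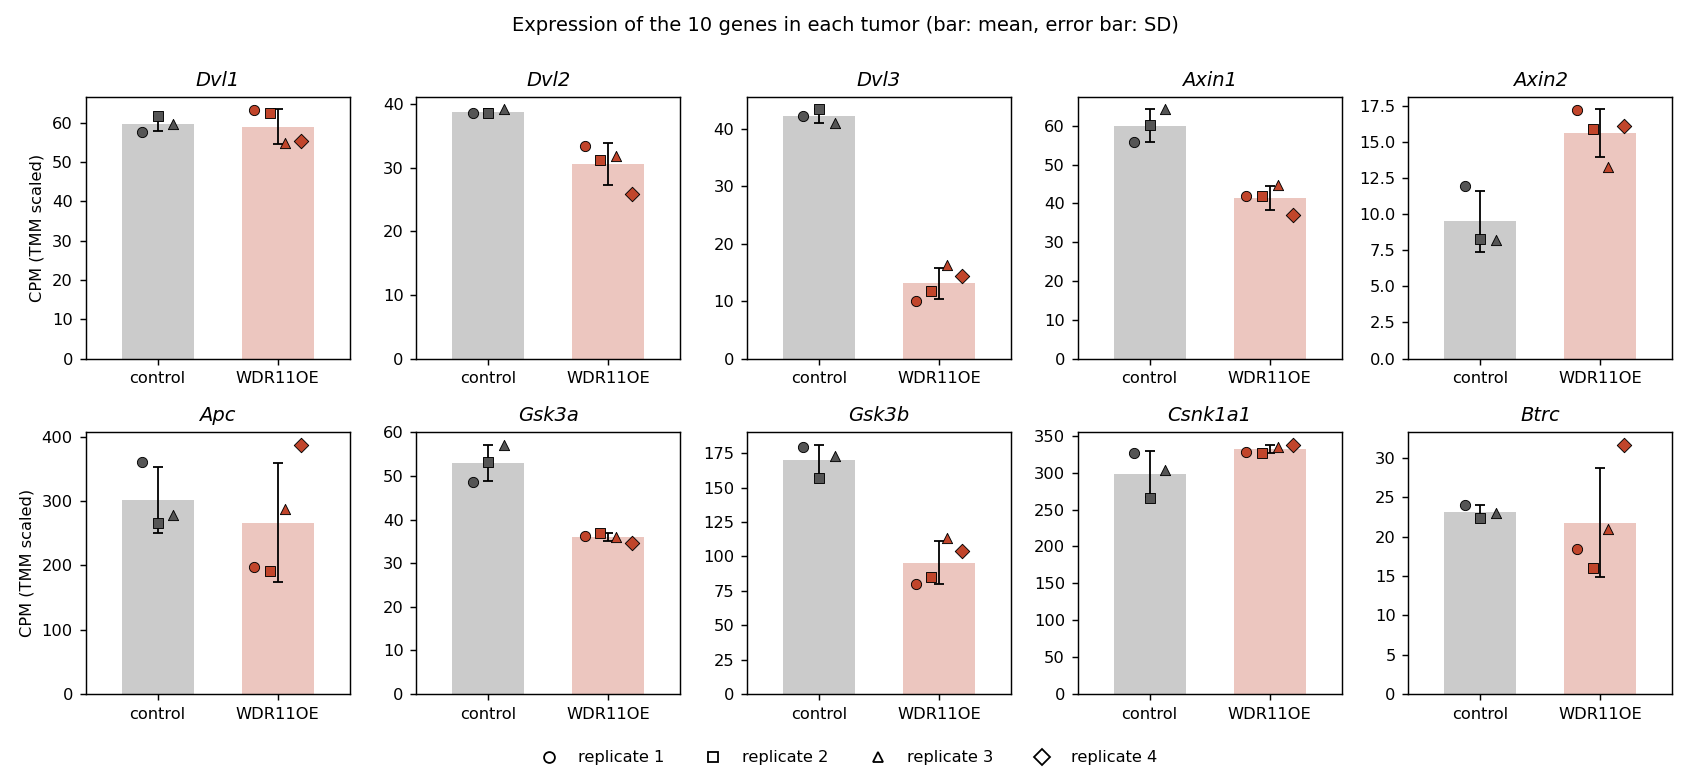
Expression of the 10 genes in CPM scaled by TMM (y axes, each from 0) in control and WDR11OE tumors (x axes). Points are tumors, bars are means and error bars are SD. The WDR11OE tumors lie below every control for Dvl2, Dvl3, Axin1, Gsk3a and Gsk3b, and above every control for Axin2 and, narrowly, for Csnk1a1.

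Dishevelled proteins relay the signal from Frizzled to the destruction complex. Dvl3 was at 42.2, 43.4 and 40.9 CPM in control replicates 1, 2 and 3, and at 10.1, 11.7, 16.2 and 14.3 CPM in WDR11OE replicates 1 to 4. Every WDR11OE tumor was below every control by a wide margin. The log2 fold change was -1.69 with a standard error of 0.16 (adjusted p = 0.00104, edgeR, Benjamini-Hochberg), and Dvl3 was the single member to pass the threshold when a mean log2 CPM over 0 and a 2-fold change or more were also asked for, which 3.45% of all genes passed as lower and 2.36% as higher. At an adjusted p under 0.01, 4 members were lower and 0 higher, against 8.93% and 8.91% of all genes, and Axin2 had an unadjusted p of 0.00430. Dvl3 lies at chr16:20517055-20532593 on the plus strand (NCBIM37). Of the 15 tested genes within 200 kb of it, 2 were lower and 2 higher. Around Gsk3a, 5 of 12 were lower and 0 higher (median log2 fold change -0.42), and around Axin1, 4 of 13 were lower and 1 higher (-0.30). Around Dvl2, 6 of 19 were lower and 3 higher (-0.14). Around Gsk3b, 1 of 5 was lower and 1 higher (0.57), and around Axin2, 1 of 2 was higher (0.82). Of all tested genes, 15.8% were lower and 18.1% higher. These sets are small, the trend with GC content was not removed from their values, and a local effect was not tested.

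Dvl2 was at 38.5, 38.7 and 39.2 CPM in the controls and at 33.4, 31.2, 31.9 and 25.9 CPM in the WDR11OE tumors. The groups did not overlap, yet the difference was small, with a log2 fold change of -0.34, a standard error of 0.10 and an adjusted p of 0.0304 (edgeR, Benjamini-Hochberg). The call was kept in 9 of 20 alternatives, which changed the test, the scaling, the filter, the trends removed or the tumors included. It was lost when the trend of the fold changes with GC content was removed (log2 fold change -0.14, adjusted p = 0.324, edgeR, Benjamini-Hochberg), and the direction turned when a trend with gene length was removed as well (0.12). Leaving out any library other than WDR11OE replicate 4 also ended the call, with adjusted p-values (edgeR, Benjamini-Hochberg) of 0.0681, 0.0819 and 0.0818 without control replicates 1, 2 and 3, and of 0.0696, 0.0962 and 0.0535 without WDR11OE replicates 1, 2 and 3. The log2 fold changes in these fits, from -0.42 to -0.34, were about as large as with all tumors or larger. Dvl2 (chr11:69814097-69825803, NCBIM37) shares 1151 exon bases with Acadvl on the opposite strand. Acadvl, which encodes a mitochondrial acyl-CoA dehydrogenase, rose (log2 fold change 0.47, adjusted p = 0.0119, edgeR, Benjamini-Hochberg). The strand setting of the counting is not given in the sources used here.

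Dvl1 was at 57.8, 61.6 and 59.8 CPM in the controls and at 63.2, 62.6, 54.9 and 55.5 CPM in the WDR11OE tumors, so that the groups overlapped. Its log2 fold change of -0.02 had a 95% interval from -0.19 to 0.16 and an adjusted p of 0.889 (edgeR, Benjamini-Hochberg). Across the alternatives its direction was not stable: it was 0.02 with upper quartile scaling, and Dvl1 passed as higher with the GC trend removed (0.32, adjusted p = 0.0231, edgeR, Benjamini-Hochberg).

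Levels of different genes were compared per kilobase of merged exon. Shares and orders on this scale, here and below, depend on which annotated transcripts set the length. The summed Dishevelled level was 26.7 ± 0.542 CPM per kb (SD, n = 3) in the controls and 19.3 ± 0.858 CPM per kb (SD, n = 4) in the WDR11OE tumors. Within this sum, the share of Dvl3 was 32.2% ± 0.663 in the controls and 13.9% ± 3.23 in the WDR11OE tumors. The share of Dvl1 was 44.7% ± 0.652 and 61.0% ± 3.00, and that of Dvl2 was 23.1% ± 0.526 and 25.1% ± 1.73. On this scale Dvl3 was therefore the second of the 3 genes in the controls and the last in every WDR11OE tumor. Its merged exons span 4899 bases, whereas its longest coding transcript has 2498, so another choice of length could change this order.

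A ratio taken within a tumor does not depend on the scaling between libraries. The ratio of Dvl1 to Dvl3, on CPM, was between 1.37 and 1.46 in the controls and between 3.39 and 6.26 in the WDR11OE tumors, a difference in mean log2 ratio of 1.69. That of Dvl2 to Dvl3 was between 0.891 and 0.958 in the controls and between 1.81 and 3.31 in the WDR11OE tumors, a difference of 1.36. Both had p = 0.0286 in a two-sided exact permutation test, the smallest value that the 35 splits of 7 tumors allow, and 0.0571 after adjustment over the 6 ratios tested, which does not pass 0.05. The ratio of Dvl1 to Dvl2, taken per kilobase, lay between 1.89 and 2.01 in the controls and between 2.17 and 2.70 in the WDR11OE tumors (difference in log2 0.33, exact permutation p = 0.0571, adjusted p = 0.0857).

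**Figure D2:**
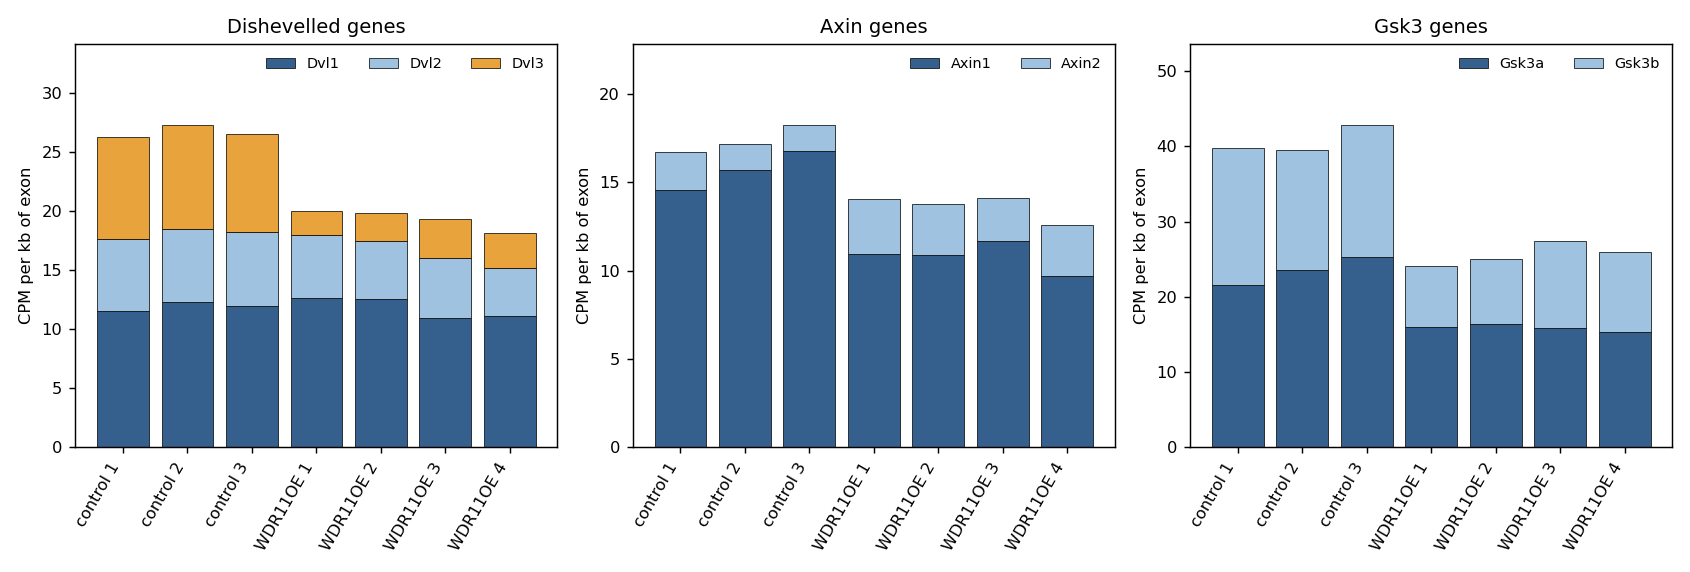
Levels of the Dishevelled, Axin and Gsk3 genes in CPM per kilobase of exon (y axes), stacked for each of the 7 tumors (x axes), with 1 color for each gene. The Dvl3 block is smaller in every WDR11OE tumor than in every control, while the Dvl1 block has about the same height throughout, and the Axin2 block is taller in the WDR11OE tumors.

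Promoter sequences of 6 of the 10 genes were matched in the RefSeq tables (GRCm38.p6), each covering 250 bases before and 50 bases after the annotated start. Those of the Dishevelled genes that fell and of Axin2, the gene that rose, are shown here to let the start regions of genes with opposite changes be compared. Capitals mark CACGTG, the palindromic E-box that MYC and other basic helix-loop-helix factors can bind.
Dvl2: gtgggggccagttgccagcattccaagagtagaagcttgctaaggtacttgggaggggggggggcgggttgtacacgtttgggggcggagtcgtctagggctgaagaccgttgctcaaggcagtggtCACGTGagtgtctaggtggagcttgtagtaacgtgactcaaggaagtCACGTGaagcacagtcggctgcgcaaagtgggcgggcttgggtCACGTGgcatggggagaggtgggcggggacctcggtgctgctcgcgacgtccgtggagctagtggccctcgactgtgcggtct
Dvl3: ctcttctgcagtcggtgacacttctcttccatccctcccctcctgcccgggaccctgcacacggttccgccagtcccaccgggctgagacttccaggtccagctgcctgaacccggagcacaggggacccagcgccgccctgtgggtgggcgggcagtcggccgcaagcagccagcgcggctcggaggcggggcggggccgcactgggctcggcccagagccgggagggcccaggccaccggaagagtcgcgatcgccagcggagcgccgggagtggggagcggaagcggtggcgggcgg
Axin2: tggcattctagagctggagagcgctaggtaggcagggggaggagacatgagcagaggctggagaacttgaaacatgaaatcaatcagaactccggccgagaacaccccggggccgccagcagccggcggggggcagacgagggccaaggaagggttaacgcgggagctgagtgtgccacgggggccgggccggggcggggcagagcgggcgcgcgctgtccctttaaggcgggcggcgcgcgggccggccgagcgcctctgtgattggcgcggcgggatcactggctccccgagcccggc

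In GRCm38.p6 these windows are chr11:70000342-70000641 for Dvl2, chr16:20516736-20517035 for Dvl3 and chr11:108920099-108920398 for Axin2, all on the plus strand. The Dvl2 window holds CACGTG at 3 places, whereas the Dvl3 and Axin2 windows hold none. At least 1 match is found in 7.15% of 32851 RefSeq promoters of the same length, and 3 or more in 0.0883%. The core that TCF/LEF factors recognize was searched on both strands as the letters CTTTG followed by 2 letters that are each A or T. They occurred in the Gsk3a window and in none of the other 5, against 16.9% of all promoters. The motifs and the printed promoters were chosen after the sequences and the values had been seen. A match describes letters and not a bound site.

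The scaffolds Axin1 and Axin2 are close relatives, of which Axin1 is used broadly and Axin2 is induced by beta-catenin. Axin1 was at 55.7, 60.1 and 64.3 CPM in the controls and at 41.9, 41.8, 44.7 and 37.1 CPM in the WDR11OE tumors. No WDR11OE tumor reached the lowest control. The log2 fold change was -0.54 with a standard error of 0.08 (adjusted p = 0.00350, edgeR, Benjamini-Hochberg). The call was kept in 19 of 20 alternatives and was lost when the GC and length trends were removed together (-0.23, adjusted p = 0.127, edgeR, Benjamini-Hochberg).

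Axin2 moved the other way. It was at 11.95, 8.30 and 8.24 CPM in the controls and at 17.2, 15.9, 13.3 and 16.1 CPM in the WDR11OE tumors, where the lowest tumor was just above the highest control. The log2 fold change was 0.72 with a standard error of 0.18 (adjusted p = 0.0185, edgeR, Benjamini-Hochberg). The direction was the same in all 20 alternatives and the call was kept in 15. It was lost without control replicate 2 (0.63, adjusted p = 0.0692), control replicate 3 (0.62, adjusted p = 0.0635), WDR11OE replicate 1 (0.63, adjusted p = 0.0711) or WDR11OE replicate 2 (0.66, adjusted p = 0.0676), all by edgeR with Benjamini-Hochberg adjustment. With the GC trend removed the fold change was larger (0.93, adjusted p = 0.0106, edgeR, Benjamini-Hochberg). Gm11670, an antisense transcript that overlaps 209 exon bases of Axin2, had at most 1 count in any tumor.

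On the CPM scale the ratio of Axin2 to Axin1 was between 0.128 and 0.214 in the controls and between 0.297 and 0.434 in the WDR11OE tumors. The difference in mean log2 ratio was 1.27 (exact permutation p = 0.0286, adjusted p = 0.0571 over the 6 ratios). Per kilobase, Axin2 made up 9.98% ± 2.62 (SD, n = 3) of the summed Axin level in the controls and 20.9% ± 2.66 (SD, n = 4) in the WDR11OE tumors, while the sum went from 17.4 ± 0.799 to 13.6 ± 0.704 CPM per kb. Axin1 thus remained the more abundant of the pair in every tumor.

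Apc is the large scaffold lost in colorectal cancer. It was at 361, 266 and 278 CPM in the controls and at 198, 191, 288 and 388 CPM in WDR11OE replicates 1 to 4. The WDR11OE tumors covered a wider range than the controls and overlapped them, and the log2 fold change of -0.18 had a 95% interval from -0.80 to 0.44 (adjusted p = 0.647, edgeR, Benjamini-Hochberg). Its range of 1.02 on the log2 scale among the WDR11OE tumors may be set beside a median of 0.43 for all tested genes. Apc-ps1, a pseudogene with sequence in common with Apc, had between 14 and 93 counts per tumor, against at least 8353 counts for Apc.

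The kinases Gsk3a and Gsk3b phosphorylate beta-catenin after priming by Csnk1a1, and each of the Gsk3 kinases also acts in glycogen and insulin signaling. Gsk3b was at 179, 157 and 173 CPM in the controls and at 79.7, 84.8, 113 and 104 CPM in the WDR11OE tumors. The groups were far apart, with a log2 fold change of -0.83, a standard error of 0.13 and an adjusted p of 0.00345 (edgeR, Benjamini-Hochberg). The call held in all 20 alternatives, with log2 fold changes from -1.01 to -0.69. WDR11OE replicates 1 and 2 had the lowest values of both Gsk3b and Dvl3.

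Gsk3a was at 48.6, 53.3 and 57.1 CPM in the controls and at 36.1, 36.9, 36.0 and 34.7 CPM in the WDR11OE tumors. The WDR11OE tumors were nearly equal and all below the controls, with a log2 fold change of -0.56 and a standard error of 0.07 (adjusted p = 0.00168, edgeR, Benjamini-Hochberg). With the GC trend removed the call was lost (-0.22, adjusted p = 0.0723, edgeR, Benjamini-Hochberg), and it was kept in the other 19 alternatives. Gsk3a shares 436 exon bases with 9130221H12Rik on the opposite strand, which was at 5.54 to 7.66 CPM, and a processed copy on chromosome X with 89.5% identity, Gm6275, had 0 counts in all 7 tumors.

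Per kilobase, the summed Gsk3 level was 40.7 ± 1.88 CPM per kb (SD, n = 3) in the controls and 25.6 ± 1.42 CPM per kb (SD, n = 4) in the WDR11OE tumors. Gsk3a made up 57.5% ± 2.97 of it in the controls and 62.3% ± 4.23 in the WDR11OE tumors. The ratio of Gsk3a to Gsk3b overlapped between the groups (difference in mean log2 ratio 0.29, exact permutation p = 0.257, adjusted p = 0.309). This difference grew to 0.80 with the GC trend removed, with an adjusted p of 0.0343 by the exact permutation test.

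Csnk1a1, the kinase that primes beta-catenin, was at 327, 265 and 303 CPM in the controls and at 328, 327, 335 and 338 CPM in the WDR11OE tumors. Every WDR11OE tumor was above every control, but the nearest values were almost equal. They were 326.82 CPM in control replicate 1 and 326.84 CPM in WDR11OE replicate 2. The gene did not pass the test across all genes (log2 fold change 0.15, 95% interval -0.05 to 0.35, adjusted p = 0.218, edgeR, Benjamini-Hochberg), and its direction turned with the GC trend removed (-0.22). With Csnk1a1 and Axin2 above all controls and 5 genes below, 7 of the 10 genes did not overlap between the groups, against 42.7% of all tested genes (19.1% lower and 23.5% higher).

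Btrc encodes beta-TrCP1, and Fbxw11 encodes its relative beta-TrCP2. Btrc was at 24.0, 22.3 and 23.0 CPM in the controls and at 18.4, 16.1, 21.0 and 31.7 CPM in the WDR11OE tumors. The controls were close together, whereas the WDR11OE tumors lay on both sides of them, with a log2 fold change of -0.08 and a 95% interval from -0.61 to 0.44 (adjusted p = 0.809, edgeR, Benjamini-Hochberg). Fbxw11 was at 76.7 ± 0.758 CPM (SD, n = 3) in the controls and 68.9 ± 0.830 CPM (SD, n = 4) in the WDR11OE tumors (log2 fold change -0.16, adjusted p = 0.0477, edgeR, Benjamini-Hochberg), a call that the study's own method, limma with voom, did not make (adjusted p = 0.0801, Benjamini-Hochberg). The Fbxw11 call was also lost when any 1 tumor was left out (adjusted p from 0.0726 to 0.135, edgeR, Benjamini-Hochberg). It was kept by DESeq2 (adjusted p = 0.00156, Benjamini-Hochberg) and with the GC trend removed (adjusted p = 0.0337, edgeR, Benjamini-Hochberg). The ratio of Btrc to Fbxw11 differed by 0.02 in log2 (exact permutation p = 0.943).

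Apc and Btrc varied most among the WDR11OE tumors, and in both the order from low to high was replicate 2, 1, 3 and 4. The summed level of 8 markers of cortical neurons was 441, 147 and 69.0 CPM in control replicates 1, 2 and 3, and 12.5, 28.2, 209 and 684 CPM in WDR11OE replicates 1 to 4. In a bulk sample, fewer cells of a type and less RNA per cell cannot be told apart. With control replicate 1 and WDR11OE replicate 4, the tumors highest in these markers, left out together, again 5 members fell and 1 rose, against 17.8% of all tested genes lower and 14% higher, with log2 fold changes of -1.79 for Dvl3 and 0.86 for Axin2. In the same fit Apc was at -0.32 (adjusted p = 0.254) and Btrc at -0.34 (adjusted p = 0.0927, both edgeR, Benjamini-Hochberg). With all tumors they were at -0.18 and -0.08. This setting was chosen after the marker sums had been seen.

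**Figure D3:**
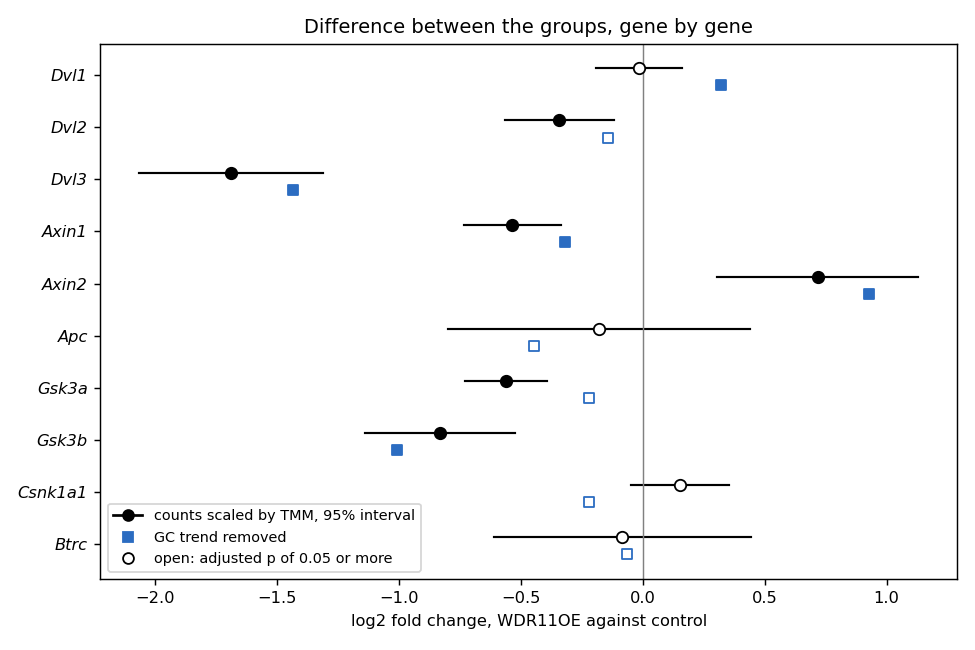
Log2 fold change of each of the 10 genes, WDR11OE against control (x axis), by gene (y axis). Black circles with 95% intervals are from counts scaled by TMM, blue squares are with the GC trend removed, and filled symbols passed an adjusted p of 0.05. Dvl3, Axin1, Gsk3b and Axin2 passed in both, Dvl2 and Gsk3a without the removal of the trend, and Dvl1 with it.

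The fold changes of all genes followed the GC content of their exons. Across 17125 genes, Spearman's rho between the 2 was -0.34, given as a description since genes share the libraries. Of the members, 6 have a GC content over 56%, from Dvl2 at 56.2% to Gsk3a at 59.8%, and the others range from Csnk1a1 at 40.6% to Btrc at 50.8%. Gsk3b, at 45.2% GC, was lower although the trend at its GC content lay at 0.18, and Dvl3, at 57.5% GC, was far below its trend of -0.25. With the trend removed, 3 of the 10 genes were lower (Dvl3, Axin1 and Gsk3b) and 2 higher (Axin2 and Dvl1), against 14.3% and 11.2% of all tested genes. With the GC and length trends removed together, 3 were lower (Dvl3, Gsk3a and Gsk3b) and 2 higher (Axin2 and Dvl1), against 11.7% and 10.2%. With WDR11OE replicates 1 and 2 summed into 1 sample, 4 were lower and 0 higher, against 12.2% and 9.51%, and Axin2 was at 0.64 (adjusted p = 0.0682, edgeR, Benjamini-Hochberg). Whether the trend arose in the libraries or in the tumors was not tested.

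**Figure D4:**
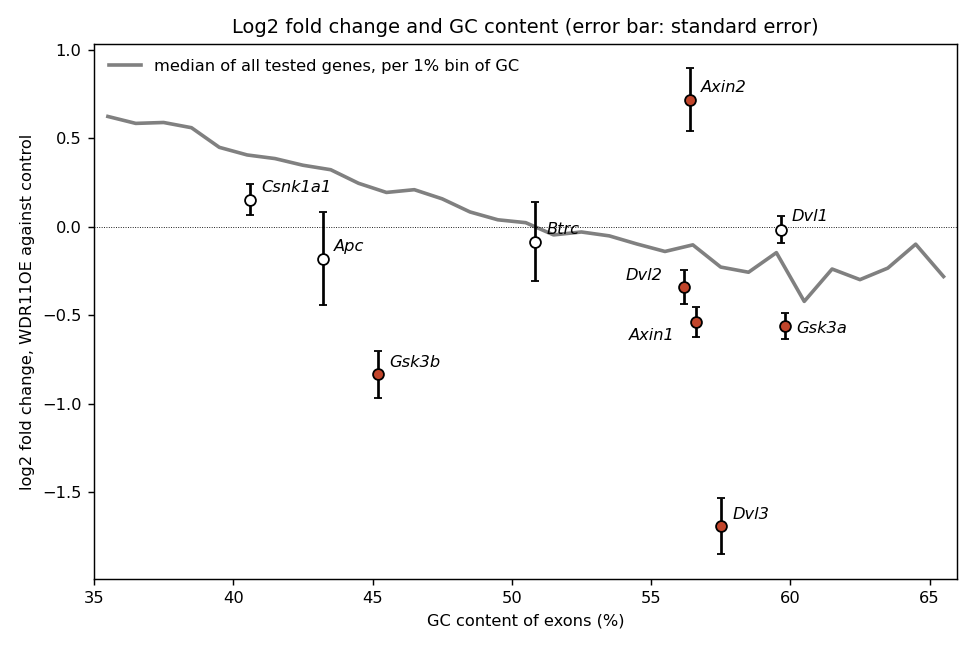
Log2 fold change, WDR11OE against control (y axis), by GC content of exons in percent (x axis). Points are the 10 genes with standard errors, filled where the adjusted p was under 0.05, and the line is the median of all tested genes in bins of 1% GC. Axin2 lies above the line and Dvl3 and Gsk3b lie furthest below it.

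The order of the levels per kilobase also differed between the groups. In the controls it ran from Csnk1a1 at 28.4 CPM per kb through Gsk3a, Apc, Gsk3b, Axin1, Dvl1, Dvl3, Dvl2 and Btrc to Axin2 at 1.72 CPM per kb. The ranges of Gsk3a and Apc, of Apc and Gsk3b, and of Gsk3b and Axin1 overlapped, and the other neighbors were separate. In the WDR11OE tumors Csnk1a1 was again first, at 31.6 CPM per kb, followed by Apc, Gsk3a, Dvl1, Axin1, Gsk3b, Dvl2, Btrc and Axin2, with Dvl3 last at 2.67 CPM per kb. There the ranges of the neighbors Dvl3 and Axin2, Axin2 and Btrc, and Btrc and Dvl2 overlapped. So did those of the neighbors Gsk3b and Axin1, Axin1 and Dvl1, and Gsk3a and Apc. Genes further apart overlapped as well, such as Dvl3 and Btrc, Apc and Dvl1, and Gsk3b and Dvl1.

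The substrate of the complex, Ctnnb1, which encodes beta-catenin, was at 1358 ± 106 CPM (SD, n = 3) in the controls and 1490 ± 223 CPM (SD, n = 4) in the WDR11OE tumors. The log2 fold change of 0.13 had a 95% interval from -0.22 to 0.48 (adjusted p = 0.541, edgeR, Benjamini-Hochberg). These are transcript levels, and neither the amount nor the phosphorylation of the protein was measured here.

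Of 28 other parts and regulators of the complex, Ctnnb1 and Fbxw11 included, 7 fell, 5 rose and 16 did not pass, against 15.8% of all tested genes lower and 18.1% higher, so that the number that rose was near that share. The lowest changes were in Ppp2r5e and Ppp2r5d, regulatory subunits of protein phosphatase 2A, and Tnks, which encodes tankyrase, an enzyme that promotes Axin degradation. Their log2 fold changes were -0.49, -0.36 and -0.42 (adjusted p = 0.0128, 0.0386 and 0.00688, edgeR, Benjamini-Hochberg). The highest were Skp1a, Cul1 and Rbx1, which encode the common core of the ubiquitin ligase that beta-TrCP joins, at 0.61, 0.59 and 0.50 (adjusted p = 0.00332, 0.00156 and 0.0188, edgeR, Benjamini-Hochberg). That core serves many other F-box proteins as well. With the GC trend removed, 6 genes of the list were lower and 2 higher, against 14.3% and 11.2% of all tested genes. Without any 1 of control replicates 2 and 3 and the 4 WDR11OE replicates, 3 or 4 were lower rather than 7, and without control replicate 1 or 2 or WDR11OE replicate 1 or 2, 3 were higher rather than 5. Over all genes, the fits named for lower genes gave 2011 to 2868 rather than 2744. Those named for higher genes gave 1560 to 2569 rather than 3150. The median of the list was 0.03.

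Of 26 partners and inhibitors of Dishevelled, 8 fell, 2 rose and 16 did not pass, against 15.8% of all tested genes lower and 18.1% higher. The median was -0.33. Voom called 8 lower and 2 higher (15.4% and 17.7% of all genes), and DESeq2 called 13 lower and 3 higher (19.3% and 17.8%). Dact3 and Nkd1, which encode inhibitors of Dishevelled, and Vangl2, a planar polarity gene, were lowest. Dact3 went from 24.5 ± 2.17 to 11.9 ± 0.700 CPM (log2 fold change -1.05, adjusted p = 0.00105, edgeR, Benjamini-Hochberg), and Vangl2 from 60.2 ± 4.30 to 30.8 ± 3.48 CPM (-0.97, adjusted p = 0.00115, edgeR, Benjamini-Hochberg). Nkd1 was at 5.33 ± 0.438 and 2.88 ± 0.517 CPM (-0.89, adjusted p = 0.0116, edgeR, Benjamini-Hochberg). The genes that rose were Ccdc88c (0.33) and Csnk2a1 (0.31), of which Ccdc88c encodes a Dishevelled-binding protein and Csnk2a1 a catalytic subunit of casein kinase 2, and Csnk2a1 did not pass with the GC trend removed (0.03). By edgeR, 0 were higher without control replicate 2 or WDR11OE replicate 1, 2 or 4, and 1 was higher without control replicate 1. Over all genes, these fits called 1560 to 2986 higher, against 3150 with all tumors.

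Of 19 tested genes for WNT receptors and receptor turnover, 10 fell and 0 rose by edgeR, against 15.8% of all tested genes lower and 18.1% higher. The median was -0.44. Limma with voom (15.4% and 17.7% of all genes) and DESeq2 (19.3% and 17.8%) each called 10 lower and 0 higher. The Frizzled genes Fzd8 and Fzd4 and the gene for the noncanonical receptor Ror2 had the lowest values. Fzd8 went from 6.52 ± 0.517 to 2.63 ± 0.495 CPM (log2 fold change -1.31, adjusted p = 0.00285), Ror2 from 35.8 ± 8.52 to 17.5 ± 4.99 CPM (-1.04, adjusted p = 0.0179) and Fzd4 from 8.75 ± 0.889 to 4.49 ± 0.148 CPM (-0.96, adjusted p = 0.00243), all by edgeR with Benjamini-Hochberg adjustment. With the GC trend removed, again 10 genes of the list were lower, against 14.3% of all tested genes. Ror2 was not among them (adjusted p = 0.0582, edgeR, Benjamini-Hochberg).

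Of 16 tested beta-catenin target genes other than Axin2, 6 fell and 0 rose by edgeR, against 15.8% of all tested genes lower and 18.1% higher. The median was -0.29. Voom called 6 lower and 0 higher (15.4% and 17.7% of all genes), and DESeq2 called 7 lower and 1 higher (19.3% and 17.8%). Sox9, a transcription factor of progenitors and glia, went from 170 ± 12.7 to 58.9 ± 13.2 CPM (log2 fold change -1.53, adjusted p = 0.00112, edgeR, Benjamini-Hochberg). Myc went from 914 ± 169 to 347 ± 75.5 CPM (-1.40, adjusted p = 0.00227, edgeR, Benjamini-Hochberg), and transcripts of the Myc retrovirus cannot be told apart from those of the gene in these counts. Nkd1, given above, was the third. Among the targets that did not pass, Notum and Lgr5, chosen after their values were seen, and Ascl2 (log2 fold change 0.17) had positive values. The others were negative: Tcf7 (-0.54), Ccnd1 (-0.46), Rnf43 (-0.30), Bmp4 (-0.28), Apcdd1 (-0.19), Lef1 (-0.11) and Tnfrsf19 (-0.09). Notum, a secreted WNT inhibitor, was at 0.926 ± 0.354 and 3.00 ± 1.78 CPM (1.69, adjusted p = 0.0785), and Lgr5, a receptor for R-spondins, at 2.87 ± 1.22 and 7.30 ± 8.46 CPM (1.35, adjusted p = 0.311), both by edgeR with Benjamini-Hochberg adjustment. The targets also share Nkd1, Znrf3, Rnf43 and Lgr5 with the other lists, so that the lists are not independent of each other.

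**Figure D5:**
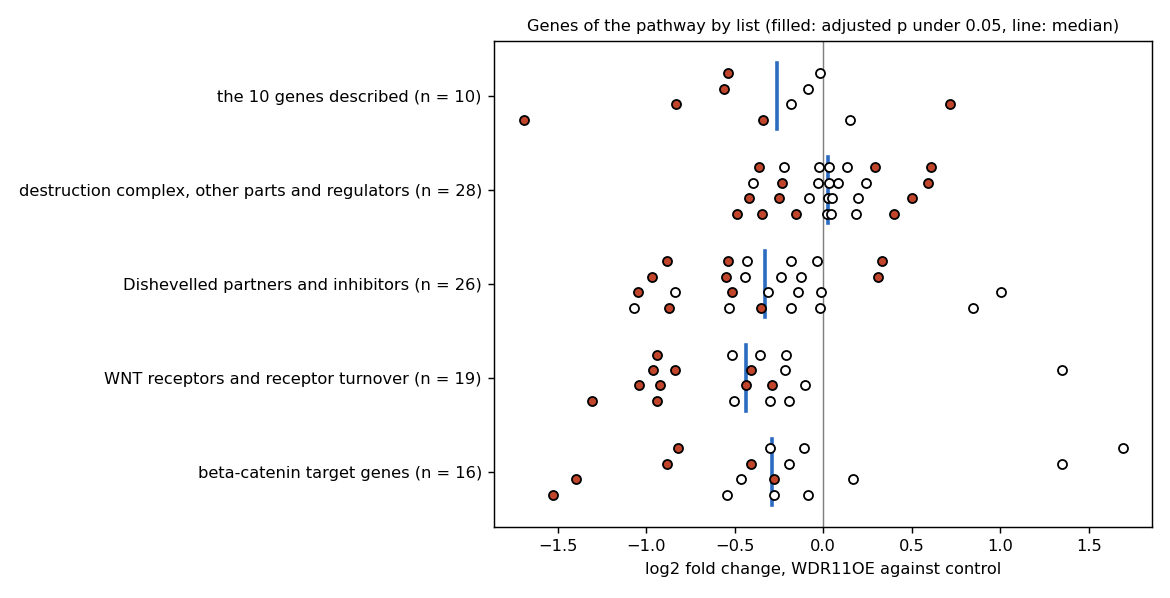
Log2 fold change, WDR11OE against control (x axis), of the tested genes of each list (y axis, n genes). Points are genes, filled where the adjusted p was under 0.05, and lines are list medians. The medians are -0.26 for the 10 genes, 0.03 for other parts of the complex, -0.33 for Dishevelled partners, -0.44 for receptors and -0.29 for targets.

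Marker lists of other cells were examined beside these values. Of 5 tested Group 3 medulloblastoma markers 1, Myc, fell. Otx2 and Nrl, further markers of that list, did not pass the filter on low counts. Of 6 granule neuron progenitor markers, 4 were tested, of which 0 were lower and 0 higher. In controls and WDR11OE tumors, Pax6 had means of 20.9 and 21.4 CPM and Zic1 of 10.1 and 7.07 CPM. Zic2 had means of 3.35 and 5.76 CPM and Neurod1 of 0.604 and 0.785 CPM. Barhl1 did not pass the filter, and Atoh1 was at 0 counts in all 7 tumors. The summed level of 8 markers of skeletal muscle was 1.26 to 2.39 CPM in the controls and 39.1 to 122 CPM in the WDR11OE tumors. Control means were as low as 0 CPM for Mb and 0.0172 CPM for Ckm. Such genes passed the filter only through the WDR11OE tumors, so no count of calls is given for this list. The summed markers of astrocytes ranged from 360 to 623 CPM and from 233 to 859 CPM, and those of oligodendrocytes from 133 to 349 CPM and from 114 to 343 CPM. For microglia and macrophages the ranges were 83.1 to 128 CPM and 64.2 to 151 CPM, for endothelium 121 to 161 CPM and 80.8 to 112 CPM, and for erythroid cells 99.0 to 1124 CPM and 23.6 to 378 CPM. Their part in the changes of the 10 genes was not tested.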

How the data were processed

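The authors mapped the reads to mouse assembly NCBIM37 (mm9), counted them per gene with HTSeq on a GENCODE annotation, and deposited raw counts of 34592 genes in 7 tumors. The submitters' processing notes also name STAR, BWA and CASAVA 1.7. The labels name a TruSeq RNA kit and the paper a stranded protocol, and the strand setting and the counter's version are not given in the sources used here.

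From these counts, genes were kept by filterByExpr of edgeR 4.0.16 (17389 genes), scaled by TMM, and compared in R 4.3.3 by its quasi-likelihood test (two-sided), with the condition as the only term and Benjamini-Hochberg adjustment over all tested genes. A call is an adjusted p under 0.05. CPM values are TMM-scaled, and log2 values used a prior count of 2. Levels per kilobase used the length of merged exons in the annotation. Ratios were compared by a two-sided exact permutation test over 35 splits, adjusted over 6 ratios. Intervals of fold changes are 95% intervals from the fit.

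Alternatives were limma 3.58.1 with voom, DESeq2 1.42.0, other scalings and filters, stricter thresholds, loess removal (span 0.3) of trends with GC content or length, summing WDR11OE replicates 1 and 2, and leaving out each tumor. Depth was at least 32116095 counts, at which 3 counts are 0.0924 CPM. Counting error is thus small for the 10 genes, the lowest of which had 269 counts. Genes named from a list are the 3 lowest and 3 highest called. The members, lists and rules were chosen with earlier results of these data known, so the lists are a description and not independent evidence.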

Additional observations from a re-analysis of the deposited data

How the results depend on the processing

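Of the 10 genes, Dvl3 and Gsk3b were called in all 20 alternatives, 1 of which was chosen after seeing the data, Axin1 and Gsk3a in 19, Axin2 in 15, Dvl2 in 9, Dvl1 in 2 and the other 3 genes in 0. The counts of members, 5 lower and 1 higher, became 3 lower and 2 higher with the GC trend removed and also with the GC and length trends removed. Asking for a mean log2 CPM over 0 and a 2-fold change or more left 1 lower and 0 higher, an adjusted p under 0.01 left 0 higher, and summing WDR11OE replicates 1 and 2 left 0 higher. Leaving out each tumor gave 4 to 5 members lower and 0 to 1 higher, with 0 higher without control replicate 2, control replicate 3, WDR11OE replicate 1 or WDR11OE replicate 2.

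Over all genes, 2744 were lower and 3150 higher. These became 1552 and 1549 at an adjusted p under 0.01, and 600 and 410 with a mean log2 CPM over 0 and a 2-fold change or more. Higher genes numbered 2093 with no filter, 1942 with the GC trend removed, 1781 with the GC and length trends removed and 1629 with WDR11OE replicates 1 and 2 summed. Leaving out each tumor gave 2011 to 2868 lower and 1560 to 2986 higher, the smallest number of higher genes being without WDR11OE replicate 1 (1560), WDR11OE replicate 2 (1657) and control replicate 2 (2045).

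Directions turned for genes that were not called and for Dvl2. Dvl1 became 0.015 with upper quartile scaling, 0.32 with the GC trend removed, 0.046 with the length trend removed and 0.52 with both. It ranged from -0.093 to 0.016 over the fits that left out each tumor, and was above 0 without control replicate 2, WDR11OE replicate 3 or WDR11OE replicate 4. Dvl2 became 0.12 and Btrc 0.16 with the GC and length trends removed, Apc 0.0099 with the length trend removed, and Csnk1a1 -0.22 and Wdr11 -0.020 with the GC trend removed. Wdr11 passed the test with upper quartile scaling (0.19), with the length trend removed (0.32) and with both trends removed (0.29).

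Of the 6 ratios, 0 passed after adjustment in the exact permutation test and 5 passed with the GC trend removed, at an adjusted p of 0.0343. The log2 differences were then 1.26 for Axin2 to Axin1, 0.80 for Gsk3a to Gsk3b, 0.46 for Dvl1 to Dvl2, 1.77 for Dvl1 to Dvl3 and 1.31 for Dvl2 to Dvl3. With the GC and length trends removed they were 1.39, 0.46, 0.40, 1.79 and 1.39, with the same adjusted p. Axin2 to Axin1, Dvl1 to Dvl3 and Dvl2 to Dvl3 already had the smallest exact permutation p, 0.0286, without the removal. Their differences without it were 1.27, 1.69 and 1.36. Their adjusted p fell because more of the 6 ratios reached that smallest value. Gsk3a to Gsk3b and Dvl1 to Dvl2 reached it with the trend removed. The fitted GC trend, WDR11OE minus control, was -0.34 for Gsk3a and 0.18 for Gsk3b. It was -0.34 for Dvl1 and -0.20 for Dvl2. Removing the trend thus subtracts unlike values from the genes of each ratio. Where the trend came from was not tested. The ratios among the Dishevelled genes also depend on each other. No paired analysis was possible because the labels number no replicates, and the replicate numbers used here only name the tumors. Leaving out tumors moved the lists as well. With control replicate 1 and WDR11OE replicate 4 left out, 13 rather than 8 partners of Dishevelled were lower, against 17.8% of all tested genes. This setting was chosen after the data were seen. Without WDR11OE replicate 4, 1 target was higher, and 2986 of all genes were higher rather than 3150.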
